A study of Mus musculus with 16 samples.

Results

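The potassium channel genes other than *Kcnj11* were described in cultured islets of male *db/db* mice. They were the rows of the islet count table that were annotated as protein coding and carried a symbol beginning with *Kcn*, with *Kcnj11* left out, and no measured value entered that choice. This gave 93 genes of 54532 rows. The mice carried the Leprdb mutation of the leptin receptor on the BKS(D) background (strain BKS(D)-Leprdb/JOrlRj), which leads to obesity and diabetes, and were 12 to 13 weeks old. Their islets were cultured in RPMI medium with 11 mmol/l glucose and received either DMSO, the solvent, or 10 µmol/l adjudin, an indazole-based small molecule, for 1 day. There were 16 RNA samples, 8 with DMSO and 8 with adjudin, and each of 8 numbered batches held 1 sample of each kind. All samples carried the mutation and passed through the culture, so every value below describes diabetic islets kept ex vivo, and no islets of lean mice enter the comparison. Each biological sample was made from islets of 1 to 2 mice, and the labels do not say further what a batch number stands for.

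Potassium channels set the resting potential of a cell and end its action potentials by letting potassium leave. In islet endocrine cells this governs calcium entry and hormone release: the ATP-sensitive channel, built from *Kcnj11* and *Abcc8*, holds the beta cell silent at low glucose, and voltage-gated, calcium-activated and background channels shape the electrical activity that follows its closure. The family holds pore-forming subunits (voltage-gated Kv, Kv7 and EAG-type channels, inward rectifiers, calcium-activated channels and the K2P background channels, whose subunits each carry a pair of pore loops) and auxiliary subunits that form no pore but alter the gating or traffic of their partners (Kv beta, KChIP, KCNE and BK beta proteins).

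The pore-forming members share a short signature in each pore loop, which lines the selectivity filter. It was searched in the translated longest complete coding transcript of every member (GENCODE release of the GRCm38 build) as serine or threonine, any residue, glycine, then tyrosine, phenylalanine, leucine or methionine, then glycine. At least 1 match was found in 77 of 93 members. All 14 K2P genes had 2 matches, all 14 inward rectifiers had 1, and of the 16 auxiliary genes only *Kcne1l* had one. *Kcnh2* and *Kcna6* each had a second match. The fourth codon of the signature differed between the 2 K2P loops and between classes. The first K2P loop encoded tyrosine in 11 of 14 genes, and the second loop phenylalanine in 11 and leucine in 3. Tyrosine was encoded in 13 of 14 inward rectifiers and in all Kv4, Kv7 and silent Kv genes. By contrast, 7 EAG-type genes encoded phenylalanine in their only match, and *Kcnh2* in its second. A match is a string of letters and not a measured property of the channel.

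Shown here are the signature codons of the most abundant member, of the leading EAG-type gene and of pore-forming genes whose RNA passed the test for adjudin. The 15 bases of the signature are in capitals, the flanks in lower case, and each line reads 5′ to 3′ along the coding strand.
*Kcnk16*, first loop: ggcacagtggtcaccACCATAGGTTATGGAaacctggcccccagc
*Kcnk16*, second loop: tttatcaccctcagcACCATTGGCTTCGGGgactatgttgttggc
*Kcnk6*, first loop: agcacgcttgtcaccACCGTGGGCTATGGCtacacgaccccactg
*Kcnk6*, second loop: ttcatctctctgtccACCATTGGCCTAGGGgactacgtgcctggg
*Kcnh2*: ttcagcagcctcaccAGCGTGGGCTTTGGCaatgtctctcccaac
*Kcnj2*: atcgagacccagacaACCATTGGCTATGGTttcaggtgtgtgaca
*Kcnma1*: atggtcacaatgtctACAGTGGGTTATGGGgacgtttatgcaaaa

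In GRCm38 these coding stretches lie at chr14:20264304-20265187 and chr14:20262972-20263291 on the minus strand for *Kcnk16*, each spanning an intron, and at chr7:29225845-29232183, again across an intron, and chr7:29225521-29225565 on the minus strand for *Kcnk6*. The *Kcnh2* stretch lies in exon 7 of 15 at chr5:24325540-24325584 on the minus strand. The *Kcnj2* stretch is in exon 2 of 2 at chr11:111072192-111072236 on the plus strand. The *Kcnma1* stretch is in exon 8 of 31 at chr14:23528398-23528442 on the minus strand.

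The libraries held 24190102 to 32675186 gene-assigned reads with DMSO and 24852862 to 34471164 with adjudin. The 93 genes took 0.0742% to 0.0950% of these reads with DMSO and 0.0810% to 0.0944% with adjudin. Per sample, 81 to 84 of them had a read with DMSO and 79 to 84 with adjudin. The tissue label was met: markers of beta cells summed to between 36015 and 121621 CPM (counts per 1000000 library reads) in the DMSO samples, with batch 4 lowest. Markers of macrophages (670 to 1246 CPM) and of exocrine acinar cells (4824 to 11858 CPM) were present as well, so the RNA came from more cell types than the endocrine ones. In bulk RNA of this kind, fewer cells of a type and less RNA per cell cannot be told apart.

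A single K2P gene dominated the family. *Kcnk16*, which encodes the background channel TALK1 known from beta cells, stood at a length-scaled level of 56.8 ± 9.07 (SD, n = 8) with DMSO. This level is the count divided by gene length in kilobases and by library size in units of 1000000 reads, so that genes can be compared. It ranged from 42.0 in batch 4 through a median of 55.9 to 71.1 in batch 2, and it was the most abundant member in all 8 DMSO samples. Its share of the summed level of all members was 26.1%. Among the 16910 genes tested it ranked 817th by this level. *Kcnk1*, a weakly conducting background channel, was second in all 8 samples at 24.3 ± 1.46, with a range of 22.6 to 26.7, and its batch means had the smallest spread among the tested members.

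*Kcnmb2*, the BK beta subunit that makes calcium-activated channels inactivate, and *Kcnh2*, the ERG-type channel of cardiac repolarisation, came next at 17.1 ± 3.00 and 16.4 ± 3.00. Their order was not settled, since *Kcnmb2* was above *Kcnh2* in only 3 of 8 DMSO samples. *Kcnk12* (9.79 ± 1.19), a K2P subunit of the THIK group, *Kcnh6* (8.77 ± 1.86), a further ERG-type gene described in beta cells, *Kcnip1* (8.55 ± 1.5), a calcium-binding partner of Kv4 channels, and *Kcnh1* (7.88 ± 1.11), the founding EAG-type channel, overlapped in their ranges. Within this set neighbours changed places: *Kcnk12* exceeded *Kcnh6* in 5 of 8 samples, *Kcnh6* exceeded *Kcnip1* in 4 and *Kcnip1* exceeded *Kcnh1* in 5. *Kcnk3*, an acid-sensitive background channel, stood at 5.28 ± 1.30. It was below *Kcnh1* on average, and *Kcnh1* was the higher of the pair in all 8 samples.

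*Kcnn4*, the intermediate-conductance calcium-activated channel, stood lower, at 4.25 ± 0.804, and *Kcnk6*, a relative of *Kcnk1*, at 4.15 ± 0.821. *Kcnn4* exceeded *Kcnk6* in 4 of 8 samples, so these neighbours were not separated. By CPM without division by length, 10 of the 12 leading genes were the same and the long transcripts *Kcnma1* and *Kcnn3* entered. Below these, levels fell off steeply: 4 members reached a length-scaled level of 10, 9 reached 5, 30 reached 1 and 62 reached 0.1.

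**Figure D1:**
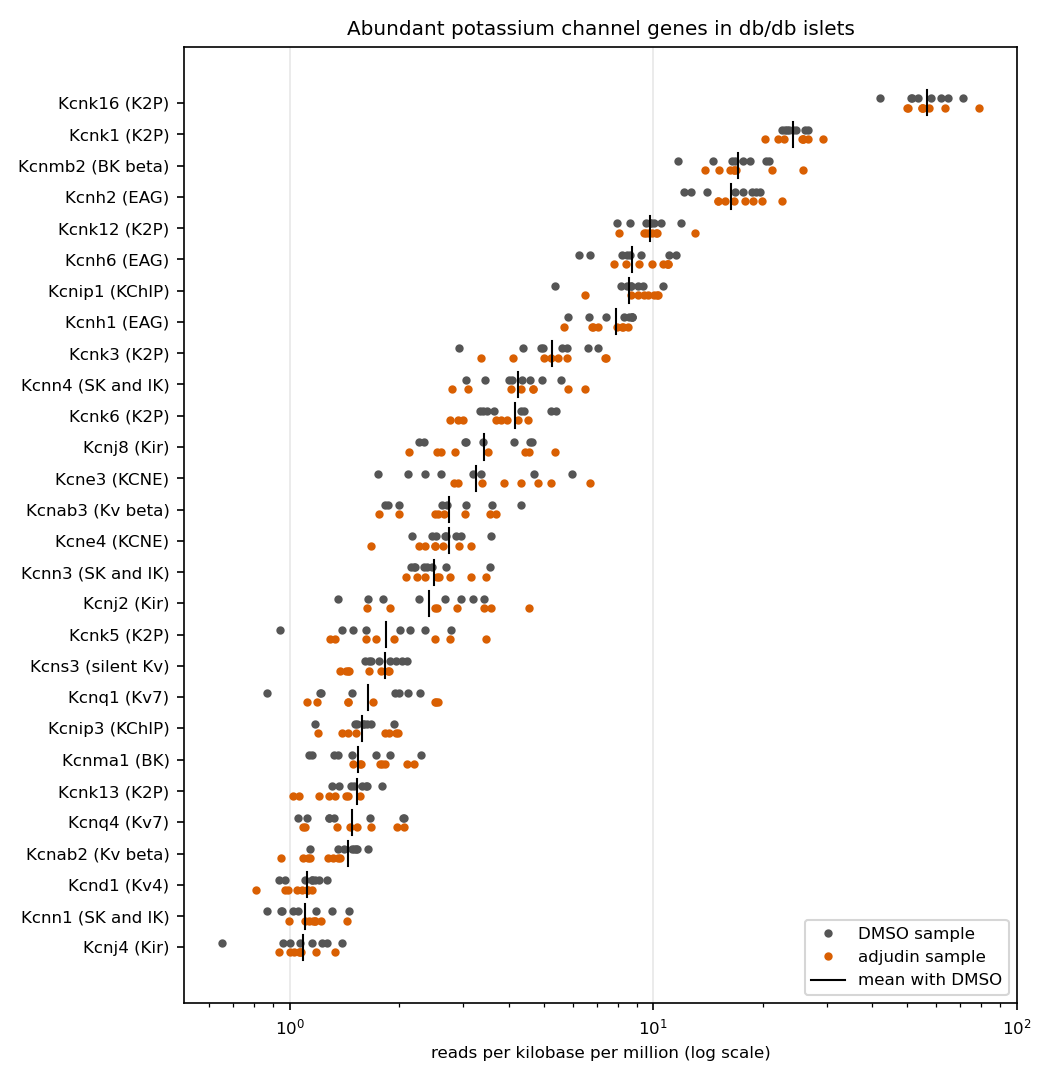
Levels of 28 of the 30 most abundant potassium channel genes, as length-scaled level (reads per kilobase and 1000000 library reads) on a log axis, with 1 point per sample (grey for DMSO, orange for adjudin) and a black bar at the DMSO mean. *Kcnk16* at a mean of 56.8 with DMSO stands apart from *Kcnk1* at 24.3. With DMSO the ranges of *Kcnmb2* and *Kcnh2* overlap, as do those of neighbours from the fifth gene on.

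By class, the 14 K2P genes carried 48.0% of the summed level in DMSO samples, the 8 EAG-type genes 15.9%, the 4 BK beta genes 8.22% and the 4 KChIP genes 5.11%. The 14 inward rectifiers other than *Kcnj11* made up 4.12%, led by *Kcnj8*, the pore subunit of the vascular ATP-sensitive channel, at 3.43 ± 0.937. The classic voltage-gated classes were small: Kv2 held 2.51%, Kv3 1.84%, Kv7 1.74%, Kv1 0.788% and Kv4 0.649%. *Kcnma1*, the sole BK pore gene, held 0.709% at 1.54 ± 0.404, so the RNA of its beta subunit *Kcnmb2* exceeded that of the pore subunit in these samples. At the low end, 9 members had fewer than 16 reads over all 16 samples, and 2 of them, *Kcna10* and *Kcnk15*, had 0 reads in every library, which allows a level of up to 0.00658 CPM (3 reads over all libraries, counting error only). The filter on low counts left out 30 members, which were not tested. None of these had more than 146 reads in total, whereas the 63 tested members had at least 204.

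For adjudin against DMSO within batches, 4 members rose and 2 fell among the 63 tested (edgeR quasi-likelihood test with a batch term, Benjamini-Hochberg adjustment over all 16910 genes, adjusted p under 0.05). Among those that rose were *Kcne3*, *Kcnj2* and *Kcnma1*, and *Kcnk6* and *Kcnab2* fell. The 4 that rose are 6.35% of the tested members, beside 2.17% of all tested genes that were higher. The 2 that fell are 3.17%, beside 3.07% of all tested genes that were lower, so the falls were at the background rate. Under scaling by DESeq2 size factors the split was 5 higher and 1 lower, and under library size alone 5 higher and 0 lower. In an edgeR fit without the batch term 0 members passed, and 3 had an unadjusted p under 0.05, all of them lower. With a batch left out, *Kcne3* was the only member to pass without batch 4 or without batch 8, 2 members passed without batch 3 or 5, 3 without batch 2 or 7, 5 without batch 1 and 7 without batch 6. None of the 3 most abundant members passed. *Kcnk16* had a log2 fold change of 0.037 ± 0.040 (SE), *Kcnk1* 0.025 ± 0.041 and *Kcnmb2* 0.054 ± 0.045, with adjusted p of 0.647, 0.777 and 0.529. The summed level of the family was 218 ± 16.3 with DMSO on the length-scaled level and 226 ± 10.6 with adjudin.

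The members as a whole sat slightly above 0. Their median log2 fold change was 0.085, with quartiles of -0.013 and 0.18, beside 0.0032 for all tested genes, and 46 of 63 were above 0 (73.0%) beside 51.4% of all genes. At an unadjusted p under 0.05, 11 members were higher (17.5%, beside 10.1% of all genes) and 6 lower (9.52%, beside 10.9%). This shift was not shared by the batches. The median within-batch difference was 0.22 in batch 4 and 0.14 in batch 5, where 48 and 44 of the 63 members were above 0, but it was -0.075 in batch 6, where 20 were, and between -0.0042 and 0.040 in the other 5. The beta cell marker sum was lowest in batch 4, at 36015 CPM with DMSO and 40095 with adjudin, and next lowest in batch 5, at 66413 and 66810. The alpha cell marker sum was higher with adjudin in 6 of 8 batches. It went from 6249 to 10625 CPM in batch 4 and from 8878 to 9779 in batch 5. In batch 1, where the members' median was -0.0042, it went from 8264 to 12244. It fell from 10762 to 7123 in batch 6, where that median was -0.075. In batch 8, with a median of 0.0042, it fell from 8561 to 6852. The part of these markers in the shift was not tested.

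The medians differed from class to class. The 6 tested EAG-type genes had a median log2 fold change of 0.15, with 5 above 0, and the 4 small- and intermediate-conductance calcium-activated genes 0.095, with all 4 above 0. The 10 tested K2P genes stood at 0.034, with 8 above 0 and *Kcnk6* as the only one past the threshold, and the 8 tested inward rectifiers at 0.037. Medians below 0 were found for the 3 Kv4 genes (-0.11), the 3 tested silent Kv genes (-0.14), the 5 tested Kv1 genes (-0.025) and the 3 Kv beta genes (-0.0018), and *Kcnab2* was the only gene of these 4 classes past the threshold. The Kv beta median turned its sign under other scalings. No class median was tested. The largest single log2 fold changes were those of *Kcnc1* (0.64), *Kcne3* (0.43) and *Kcnc2* (0.34) on the higher side, and *Kcna7* (-0.52), *Kcna6* (-0.39) and *Kcnc4* (-0.31) on the lower.

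**Figure D2:**
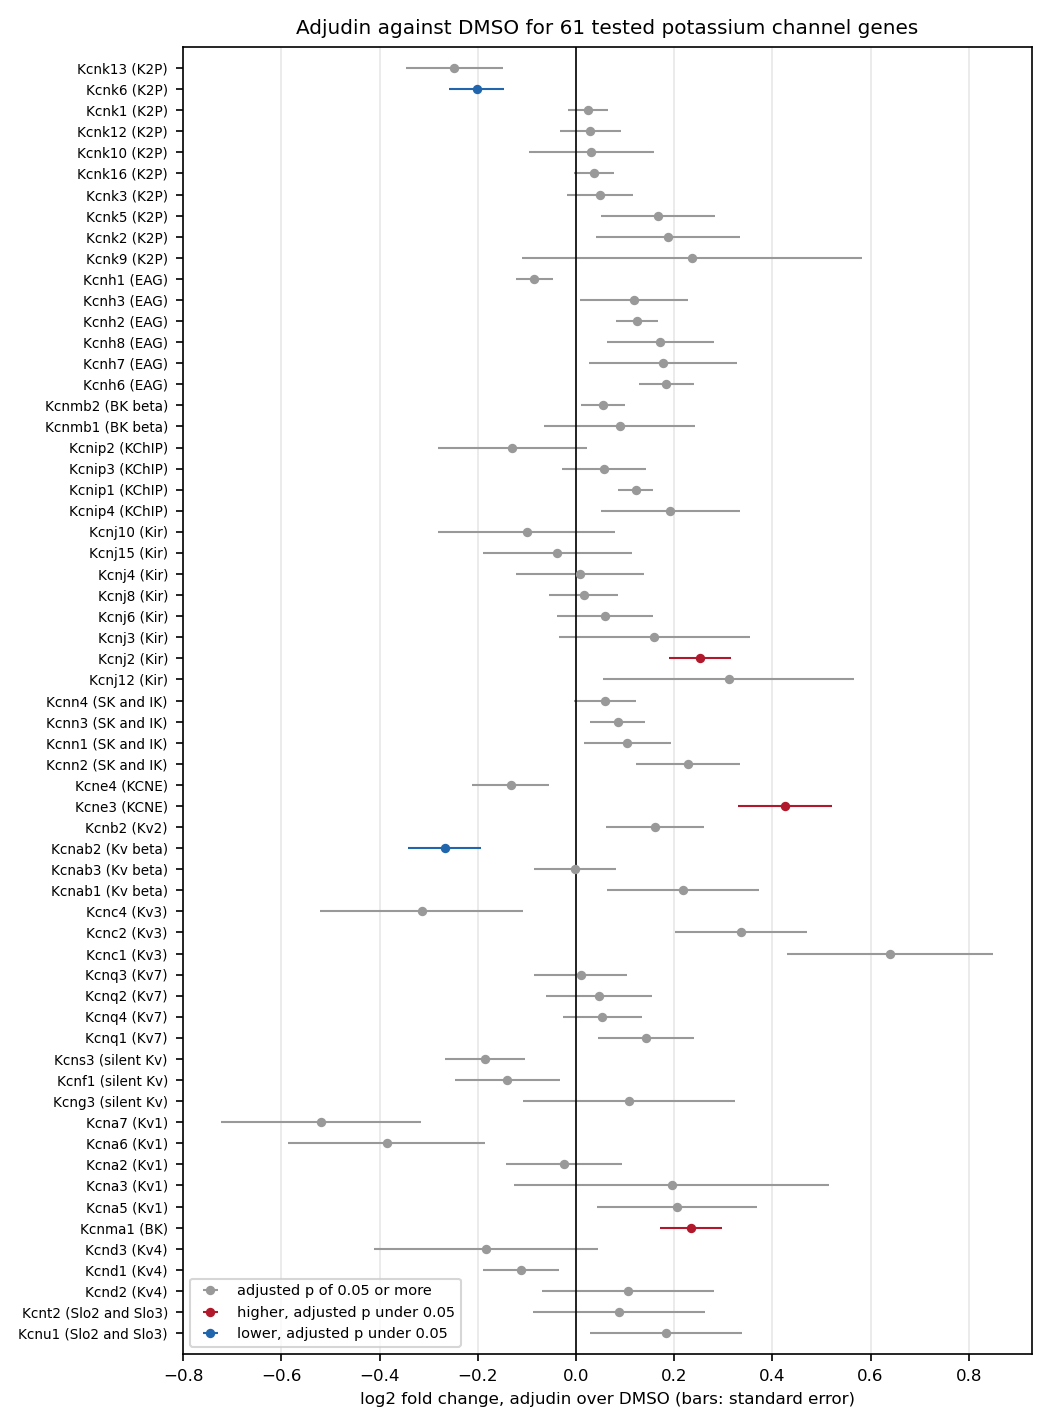
Log2 fold change of adjudin over DMSO, with its standard error, for 61 of the 63 tested members, grouped by class in order of summed level. The 3 members in red and the 2 in blue had an adjusted p under 0.05, and 44 of 61 points lie to the right of 0.

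*Kcne3* encodes a single-pass auxiliary subunit known for holding the Kv7-type channel KCNQ1 open. Its length-scaled level ran from 1.75 in batch 8 through a median of 2.90 to 5.97 in batch 3 with DMSO, and from 2.83 through 4.10 to 6.69 in the same batches with adjudin. Batches 2 and 3 were high in both groups, and the groups overlapped. Within a batch it was higher with adjudin in 8 of 8, by as little as 0.0042 on the log2 scale in batch 7 and as much as 0.88 in batch 6. The log2 fold change was 0.43 ± 0.10 (SE, adjusted p = 0.0172). It passed in all 8 fits that left out a batch, with 0.36 to 0.48 and an adjusted p of at most 0.0468. For *Kcnq1*, its partner gene, the log2 difference was 0.14 ± 0.10 (adjusted p = 0.434). *Kcne4*, the other measured KCNE gene with enough reads, stood at -0.13 ± 0.079 (adjusted p = 0.358) and was higher with adjudin in 2 of 8 batches.

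Counted over the family, 2 members (3.17%), *Kcne3* among them, were higher with adjudin in every batch, beside 2.22% of all tested genes, and 0 members were lower in every batch, beside 3.15%. The Kv3-type genes *Kcnc1*, *Kcnc2* and *Kcnc4* had log2 fold changes of 0.64 ± 0.21, 0.34 ± 0.13 and -0.31 ± 0.21, with adjusted p of 0.0875, 0.157 and 0.411. *Kcnc1* rested on 3 to 58 reads per sample, and it passed with no filter on low counts and without batch 6, as did *Kcnc2* with no filter.

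*Kcnj2* encodes Kir2-type inward rectifier subunits that stabilise the resting potential of muscle and other cells. With DMSO its length-scaled level ranged from 1.36 in batch 8 through a median of 2.47 to 3.43 in batch 4, and with adjudin from 1.64 through 2.71 to 4.55. It was higher with adjudin in 7 of 8 batches, the exception being batch 2 at -0.15. The log2 fold change was 0.25 ± 0.06 (adjusted p = 0.0295). It passed without batch 1, 2 or 6 and not without batch 3, 4, 5, 7 or 8, with an adjusted p of up to 0.101 without batch 4. Of the 8 tested inward rectifiers it was the only one to pass. *Kcnj8* stood at 0.016 ± 0.071 (adjusted p = 0.931).

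*Kcnma1* is the pore subunit of the BK channel, opened jointly by depolarisation and calcium and active during beta cell action potentials. Its length-scaled level ranged from 1.13 in batch 4 through 1.42 to 2.30 in batch 6 with DMSO, and from 1.5 through 1.78 to 2.19 with adjudin. The difference was largest in batches 3 and 4, the lowest with DMSO, at 0.45 and 0.65 on the log2 scale. It was -0.072 in batch 6, where the level with DMSO was highest. The DMSO value is part of this difference, so a low DMSO sample widens it by itself. No link between starting level and response can be read from this. *Kcnma1* was higher with adjudin in 7 of 8 batches, with a log2 fold change of 0.24 ± 0.06 (adjusted p = 0.0402). It passed without batch 1 or 6 and not without batch 2, 3, 4, 5, 7 or 8, with an adjusted p of up to 0.117 without batch 3. Its beta subunits *Kcnmb2* and *Kcnmb1* had log2 fold changes of 0.054 ± 0.045 and 0.089 ± 0.15 (adjusted p = 0.529 and 0.792).

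*Kcnk6*, the TWIK-type background channel described in macrophages and vascular cells, stood at a length-scaled level of 3.35, 3.99 and 5.40 with DMSO (lowest, median and highest) and at 2.76, 3.76 and 4.51 with adjudin. It was lower with adjudin in 7 of 8 batches, and batch 7 was the exception at 0.17 on the log2 scale. Its log2 fold change was -0.20 ± 0.06 (adjusted p = 0.0453). It passed only without batch 7, and the adjusted p was up to 0.153 without batch 4. It also missed the threshold when reads were scaled by DESeq2 size factors or by library size alone. *Kcnab2*, a cytoplasmic Kv beta subunit of Kv1 channels with an aldo-keto reductase fold, stood at 1.14, 1.49 and 1.64 with DMSO and at 0.948, 1.21 and 1.37 with adjudin. It was lower in 7 of 8 batches, with a log2 fold change of -0.27 ± 0.07 (adjusted p = 0.0454). It passed without batch 3 or 6 and not without batch 1, 2, 4, 5, 7 or 8, with an adjusted p of up to 0.129 without batch 8, and it missed the threshold under library size scaling. Its locus overlaps *Nphp4* on the opposite strand.

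Macrophage markers moved beside these falls. Of 12 such markers, 8 fell and 0 rose, with a median log2 fold change of -0.36. Their summed level was 670 to 1246 CPM with DMSO (median 984) and 643 to 885 with adjudin (median 705), lower with adjudin in 8 of 8 batches, and none was at 0. Of 10 stellate and fibroblast markers, 6 fell. Over all tested genes, 3.07% fell and 2.17% rose by the same test. Among the 4 members known from myeloid and lymphoid cells, *Kcnk6* fell. *Kcnk13*, a THIK-type channel of microglia and macrophages, had -0.25 ± 0.10 (adjusted p = 0.159), *Kcnn4* 0.059 ± 0.064 (adjusted p = 0.644) and *Kcna3* 0.19 ± 0.32 (adjusted p = 0.780). The *Kcna3* value rested on few reads. Its within-batch log2 differences had a median of -0.19, with the highest, 2.60, in batch 7. In batch 7, where *Kcnk6* was higher with adjudin, the macrophage marker sum still went from 933 to 705 CPM. The part of macrophage RNA in the fall of *Kcnk6* and *Kcnab2* was not tested.

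**Figure D3:**
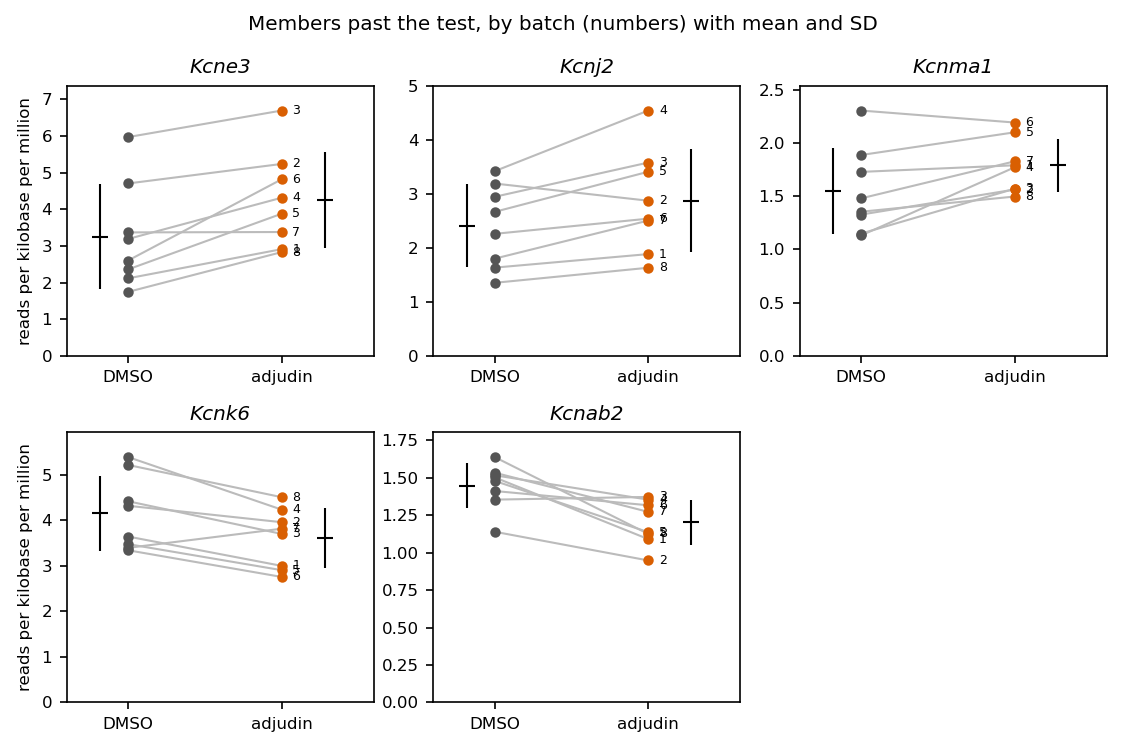
Length-scaled level (reads per kilobase and 1000000 library reads) for 5 members with an adjusted p under 0.05, with each batch's DMSO and adjudin sample joined by a line and numbered, and the mean and SD of each group beside them. *Kcne3* was higher with adjudin in all 8 batches, and the DMSO and adjudin ranges overlap for every gene shown.

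Several abundant members lay just outside the threshold. *Kcnip1* was the nearest, at 0.12 ± 0.04 on the log2 scale and higher in 6 of 8 batches (adjusted p = 0.0593). *Kcnh6* followed at 0.18 ± 0.06, also in 6 of 8 (adjusted p = 0.0689), and *Kcnh2* at 0.12 ± 0.04 in 7 of 8 (adjusted p = 0.103). These calls changed with the processing. *Kcnip1* passed with DESeq2 size factors, library size alone, no filter, the filter at 1 CPM, DESeq2 itself and without batch 7. *Kcnh6* passed with no filter, with DESeq2 and without batch 1 or batch 6, and *Kcnh2* with no filter and without batch 5. Farther from the threshold, on the lower side, stood *Kcnh1* at -0.085 ± 0.038 (adjusted p = 0.205). *Kcns3*, a silent Kv subunit that modifies Kv2 channels, was at -0.19 ± 0.08 (adjusted p = 0.206). *Kcna7*, a muscle Kv1 channel with few reads here, was at -0.52 ± 0.20 (adjusted p = 0.152). Each of these 3 was higher with adjudin in 1 of 8 batches. *Kcnn2*, a small-conductance calcium-activated channel at a low level, was also farther from the threshold, at 0.23 ± 0.11 (adjusted p = 0.227). *Kcnip1* lies opposite *Kcnmb1*. The strand setting of the counting is not known here, and whether exons of the pair overlap was not checked.

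Of 11 members described in beta cells, *Kcnma1* alone rose and 0 fell, and their median log2 fold change was 0.092. Their summed level was 293 to 443 CPM with DMSO and 372 to 417 with adjudin. The lowest DMSO sample, that of batch 4, stood at 293 beside 372 in its adjudin partner. That batch was picked by its low DMSO value, which by itself widens the gap. Of 10 beta cell markers 3 rose and 0 fell, with a median of 0.13. Over all tested genes, 2.17% rose and 3.07% fell by the same test.

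Among 13 partner genes of potassium channels, 11 were tested and 3 rose, beside 2.17% of all tested genes that rose. *Kcnj11* and *Abcc8*, the pore and sulfonylurea receptor of the ATP-sensitive channel, had log2 fold changes of 0.23 ± 0.04 and 0.28 ± 0.04 (adjusted p = 0.00322 and 0.00111). *Cntnap2*, a membrane protein that clusters Kv1 channels on axons, had 0.34 ± 0.06 (adjusted p = 0.00563). All 3 were higher in 8 of 8 batches. *Amigo1*, a companion of Kv2 channels, had 0.11 ± 0.04 in 7 of 8 batches (adjusted p = 0.0846), and the Kv4 partners *Dpp6* and *Dpp10* had -0.14 ± 0.090 and -0.035 ± 0.13 (adjusted p = 0.418 and 0.914). Beside the median of 0.085 in the members, that of the voltage-gated calcium channel genes was 0.16 over 20 tested genes, of which 1 rose, and that of the voltage-gated sodium channel genes was 0.11 over 9, of which 1 rose. None of these differences between families was tested.

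More members passed the test for batch than that for adjudin. The batch term passed in 37 of 63 (58.7%), beside 67.8% of all tested genes. The SD of the 8 batch means on the log2 scale had a median of 0.28 over the members and 0.23 over all tested genes. *Kcnj2* (adjusted p for batch 6.7e-07, edgeR) and *Kcnq3* (1.1e-06) were highest in batch 4, at 0.65 and 1.06 above their means on the log2 scale. *Kcnip1* (2.4e-06) was lowest there, at 5.36 with DMSO and 6.47 with adjudin, as was *Kcnk16* with DMSO. *Kcne3* was highest in batch 3. The widest spread of batch means among tested members was that of *Kcnk9*, an acid-sensitive K2P gene, with an SD of 0.77 on 2 to 42 reads per sample. *Kcnq3* (0.66), *Kcnc1* (0.64) and *Kcng3*, a silent Kv subunit (0.59), followed.

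Some members were high in the same batches as endothelial markers. These markers summed to 587 to 703 CPM with DMSO in batches 4, 5 and 6 and to 229 to 352 in the other batches. *Kcnq1*, a Kv7 channel of epithelia and heart, was above its mean in the same batches by 0.44, 0.54 and 0.50, *Kcnk5*, a K2P channel, by 0.73, 0.38 and 0.39, *Kcnj8* by 0.58, 0.45 and 0.36, and *Kcnq3*, a neuronal Kv7 channel, by 1.06, 0.56 and 0.39. These are 4 genes picked after their values were seen, and their relation to the endothelial markers was not tested. *Kcnk1* was the steadiest across batches, with an SD of batch means of 0.12. *Kcnq1* shares its locus with the antisense transcript *Kcnq1ot1*, which had 2774 reads beside 3254 for *Kcnq1*. Reads over any shared exon cannot be told apart if they were counted without strand. Whether the 2 share exons was not checked.

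**Figure D4:**
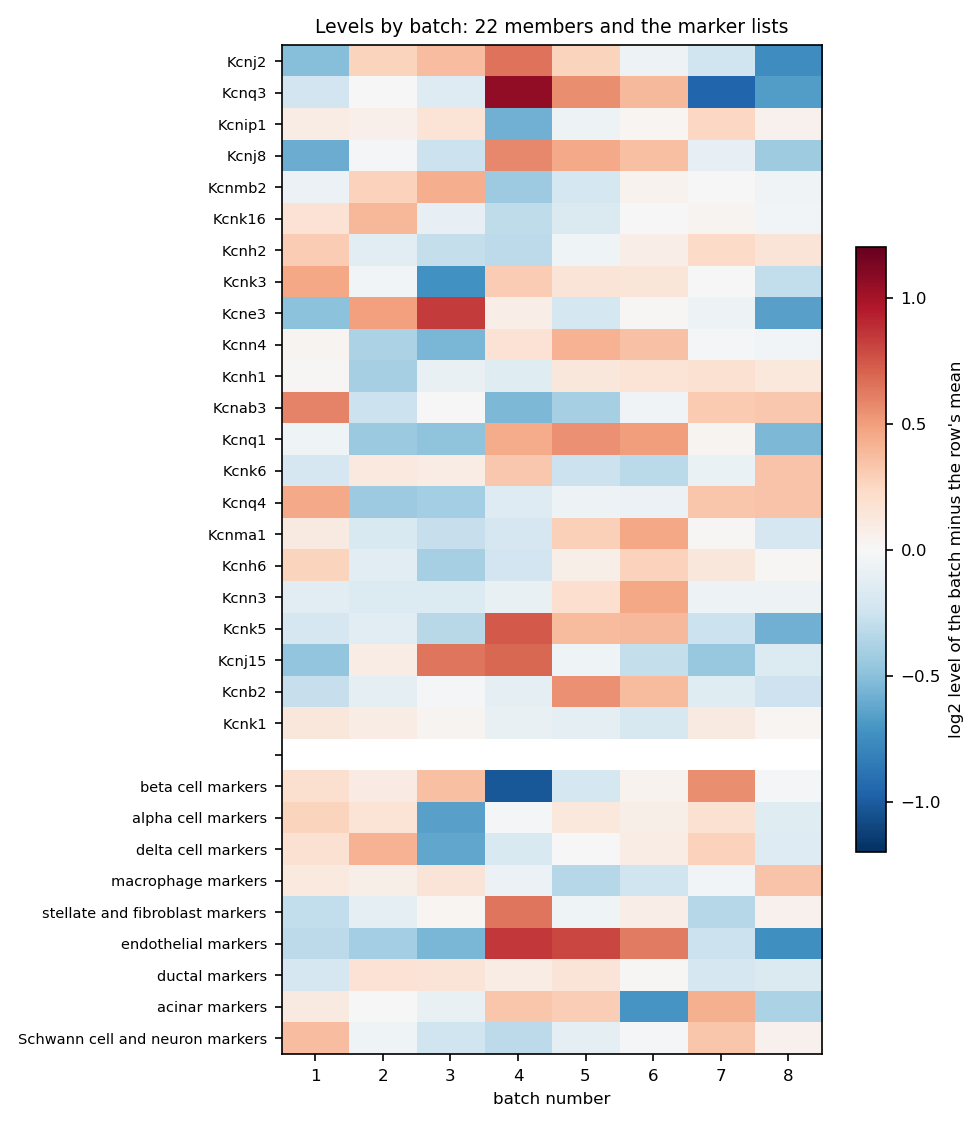
Log2 level of each batch (mean of its DMSO and adjudin sample) minus the mean of its row, for 22 of the 24 members with the smallest adjusted p for batch and, under the gap, for 9 lists of cell type markers. Batch 4 stands out with low beta cell markers and *Kcnip1* and high *Kcnj2* and *Kcnq3*, and endothelial markers are high in batches 4, 5 and 6.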

How the data were processed

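Islet RNA of 16 samples was sequenced as paired-end poly-A libraries. Per the labels and the study's methods, the authors used HISAT2 2.0.5 for alignment to GRCm38/mm10 and featureCounts 1.5.0-p3 for counting. The deposited values are raw counts per gene, with no normalisation. The strand setting of the counting is not given in the sources used here, so genes that overlap on opposite strands are uncertain. In all, 16910 rows passed edgeR's filterByExpr (minimum count 10). Counts were TMM scaled and fitted with edgeR 4.0.16 (R 4.3.3) by quasi-likelihood, with batch and treatment as terms and Benjamini-Hochberg adjustment over the tested rows (threshold 0.05). Log2 CPM used a prior count of 2, and the length-scaled level used the deposited gene lengths and TMM-scaled library sizes. Depth was 24190102 to 34471164 reads per sample, which limits precision for members with few reads. The labels' batch number pairs the samples: within a number, deviations from the group means correlated at 0.371 to 0.690 in the 8 pairs. The highest correlation of a DMSO sample with adjudin samples of other numbers was 0.273 to 0.557. It was below that of the same number in each batch. The margin was small in batch 2 (0.577 beside 0.557) and batch 7 (0.399 beside 0.376). With the batch term, the p-values for adjudin test the mean adjudin against DMSO difference within batches. It is set against the variation left after the batch and treatment terms. That variation includes how far the difference varied between the 8 batches. Each sample was made from islets of 1 to 2 mice. No pair of samples had identical counts.

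Alternatives were no batch block, DESeq2 1.42.0 size factors, library size alone, no filter, at least 1 CPM in 8 samples, DESeq2, limma-voom (limma 3.58.1) and leaving out each batch. The fits were tested on simulated data. Genes were named by rule: the 12 most abundant members, all past the threshold, those with an unadjusted p under 0.05 (up to 8 in each direction), the leading gene of each class, the 3 largest rises and falls, the 5 most variable between batches, and those on the lists of members and partners. Other genes, such as *Kcnk5* beside the endothelial markers, were named after their values were seen. The members and lists were chosen with earlier results of these data known. The values of 2 members enter the counts and sums but are not reported here. Lists are described by counts and medians, with no test.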

Additional observations from a re-analysis of the deposited data

Results flagged for a closer look

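Among 189 sets of 8 values (each tested member's log2 CPM with DMSO, with adjudin, and their difference within a batch), 11 held a sample farther from the rest than Dixon's 95% criterion allows. Chance flags about 1 in 20 such sets.

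In batch 4, *Kcnip1* was low in both samples, at 5.06 with DMSO (median of the 8 samples 5.75) and 5.33 with adjudin (median 5.89); the beta cell marker sum was lowest in the same samples. *Kcnn3* was high in the DMSO sample of batch 6, at 5.21 (median 4.63). In batch 7 the *Kcnk6* difference was 0.17 (median -0.26), and the fall of *Kcnk6* passed only without that batch. The DMSO sample of batch 7 was low for *Kcnmb1*, at 0.12 (median 1.58), and for *Kcna3*, at -2.72 (median -1.06), which gave *Kcna3* a within-batch difference of 2.60 (median -0.19). In batch 3, the DMSO sample was low for *Kcna5* (-0.86, median 0.84) and *Kcnc1* (-2.47, median -0.37), and the adjudin sample for *Kcnh8* (1.34, median 1.93) and *Kcnj12* (-2.19, median -0.30). Apart from *Kcnip1*, *Kcnn3* and *Kcnk6*, these genes were at low levels.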

How the results depend on the processing

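The pairing by batch carried the calls: with no replicate block, 1 gene and 0 members passed in edgeR (0 higher, 0 lower, with 3 members at an unadjusted p under 0.05), against 886 genes and 6 members (4 higher, 2 lower) with the block. Without a filter on low counts, 1577 genes and 11 members passed (9 higher). With DESeq2 size factors 1 member was lower, and with library size alone 0 were lower and 1 moved one way in 8 of 8 batches rather than 2. DESeq2 called 8 members and limma-voom 6. Leaving out each batch gave 412 to 1071 genes, 1 to 7 members, 1 to 6 higher and 0 to 1 lower. The median log2 fold change of the members stayed above 0, from 0.058 to 0.11. Signs turned for these members and partners, none of them past the threshold in any of these fits: *Kcnab3* (-0.0018) was 0.0018 with DESeq2 size factors, 0.0047 with library size alone, 0.0048 with no filter, 0.0024 with the 1 CPM filter and 0.0036 with DESeq2. With a batch left out the ranges were -0.11 to 0.060 for *Dpp10*, -0.083 to 0.32 for *Kcna3*, -0.072 to 0.040 for *Kcnab3*, -0.024 to 0.21 for *Kcng3*, -0.015 to 0.053 for *Kcnj8*, -0.0059 to 0.053 for *Kcnk1*, -0.025 to 0.076 for *Kcnk12*, -0.0035 to 0.12 for *Kcnk3*, -0.013 to 0.18 for *Kcnmb1*, -0.0068 to 0.086 for *Kcnn4* and -0.060 to 0.072 for *Kcnq3*. Depth limits the 30 untested members and genes such as *Kcnc1*.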
